A study of Mus musculus with 35 samples.

Results

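The 8 cholesterol synthesis genes described here are Hmgcs1, Idi1, Fdft1, Sqle, Lss, Cyp51, Dhcr7 and Insig1. They were taken by name from the deposited gene table, in which each name matched a single gene, so that the set held 8 of 21203 genes. All 8 passed the filter on low counts, which left 17131 genes for testing, so none of them entered through a high level in a single group.

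Cells make cholesterol from acetyl-CoA through mevalonate, isoprenoid units, squalene and lanosterol. The transcription factor SREBP2 drives most genes of this route, and the protein made by Insig1 holds the SREBP complex in the endoplasmic reticulum when sterols are plentiful. In the brain almost all cholesterol is made locally, since plasma lipoproteins do not cross the blood-brain barrier, and astrocytes supply much of what neurons use in adult tissue while oligodendrocytes make cholesterol for myelin.

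RNA-seq was carried out on brain tissue of 34 male C57BL/6NCrl mice, 1 library per mouse, that were 8 to 9 weeks old when procedures began. Injured mice received a closed head injury, in which the intact skull is struck, and 5 days later an injection into the left hippocampus of phosphate-buffered saline (PBS), of naïve mesenchymal stromal cells (MSCs), or of MSCs transfected with synthetic mRNA for interleukin-4 (IL-4 MSCs). Tissue was taken at 1 or 3 weeks post-injury (wpi), which is 2 or 16 days after the injection. There were 5 mice to a group, but only 4 for PBS at 3 wpi, where 1 library had been left out by the authors. The Sham group held 2 mice collected at 1 week and 3 collected at 3 weeks, which went through the procedure without impact and without injection, so injury and injection cannot be told apart in any comparison with Sham. All MSCs came from commercial primary cells of C57BL/6N mice. The number before the dash in the sample labels differed between groups and was shared within each treated group, so whatever it marks cannot be told apart from the group.

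The libraries held 29838423 to 41554322 estimated counts, with a median of 32655330. The members were well measured at this depth, with 776 to 11883 estimated counts per gene and library, whereas 3 counts corresponded to 0.0721 to 0.101 CPM (counts scaled to a common library size). The labels give the tissue as left cortex, and the piece taken surrounded the injection site, with a width that the labels and the study's methods give differently. Markers of cerebral cortex, hippocampus and striatum were all detected, and the summed level of 13 striatum markers ran from 326 to 1042 CPM in Sham and from 509 to 2838 CPM in IL-4 MSCs at 3 wpi. In such bulk tissue, fewer cells of a type and less RNA per cell cannot be told apart.

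The genes lie on 6 chromosomes of the GRCm38 build in the GENCODE annotation. Hmgcs1 (chr13:119690379-119708260) and Idi1 (chr13:8885501-8892451) share chromosome 13, and Cyp51 (chr5:4081145-4104746) and Insig1 (chr5:28071363-28078662) share chromosome 5. Dhcr7 lies at chr7:143823145-143848410, Lss at chr10:76531588-76557138, Fdft1 at chr14:63145150-63179578 and Sqle at chr15:59315077-59331192. Promoter windows for 6 of the 8 genes were taken from RefSeq on GRCm38.p6. Each window ran from 250 bases before the start of transcription to 50 bases after it, and the windows of Sqle and Fdft1 were not used here. Below, the 250 bases before the start are shown for Hmgcs1, which held every motif searched, and for Lss, whose level was nearest to Sham at 1 wpi among the members. The Hmgcs1 stretch lies at chr13:119690101-119690350 on the plus strand and the Lss stretch at chr10:76531355-76531604 on the plus strand, and both are written 5′ to 3′. Capitals mark CCAAT or its reverse complement ATTGG, the letters bound by the factor NF-Y, and in Hmgcs1 also a sterol response element.
Hmgcs1: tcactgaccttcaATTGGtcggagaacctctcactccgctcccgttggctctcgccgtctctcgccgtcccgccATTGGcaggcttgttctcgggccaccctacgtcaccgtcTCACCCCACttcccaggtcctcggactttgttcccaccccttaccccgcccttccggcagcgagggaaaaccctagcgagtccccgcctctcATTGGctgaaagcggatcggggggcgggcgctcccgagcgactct
Lss: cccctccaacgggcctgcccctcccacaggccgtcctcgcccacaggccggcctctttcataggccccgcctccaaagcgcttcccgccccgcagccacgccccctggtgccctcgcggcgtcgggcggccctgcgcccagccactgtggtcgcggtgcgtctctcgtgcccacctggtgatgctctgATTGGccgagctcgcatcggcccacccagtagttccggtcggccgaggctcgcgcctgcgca

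CCAAT on either strand was found in the windows of 6 of these 6 genes, whereas 41% of 26742 genes with a window held it. Counted per window, 6 of 8 member windows held it, beside 37.4% of 32544 windows, because 3 windows belonged to Dhcr7 and CCAAT was in only 1 of them. The classical sterol response element CACCCCAC was found in 1 member gene, Hmgcs1, where it began 136 bases before the start, and 3.32% of all genes with a window held these letters. The form TCACNCCAC, which leaves 1 base free but needs a further T at its start, was also found in Hmgcs1 alone among the members, beside 1.43% of all genes. It began 137 bases before the start and so overlapped the first form. These are matches of letters on both strands and describe the windows only.

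Levels between genes were compared as TPM, which take transcript length into account. In the 5 Sham mice, Hmgcs1, the enzyme that condenses acetyl-CoA with acetoacetyl-CoA to HMG-CoA, had the highest level of the members at 208 ± 12.1 TPM (SD, n = 5). Insig1 followed at 70.9 ± 5.16 TPM, then Fdft1, the squalene synthase, at 61.1 ± 6.79 TPM, and Idi1, which interconverts the isoprenoid units, at 59.7 ± 6.10 TPM. Sqle, the squalene epoxidase and a rate-limiting step, stood at 48.1 ± 3.88 TPM. The enzymes of the steps from squalene epoxide on were lower. Cyp51, the lanosterol demethylase, read 35.3 ± 2.81 TPM, Dhcr7, which makes cholesterol in the last step of one branch, read 31.1 ± 2.24 TPM, and Lss, the lanosterol synthase, read 17.3 ± 2.34 TPM. Neighbours in this order overlapped between Insig1 and Fdft1, Fdft1 and Idi1, Idi1 and Sqle, and Cyp51 and Dhcr7. The values of Hmgcs1 and Insig1, of Sqle and Cyp51, and of Dhcr7 and Lss did not overlap.

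The first question was whether these genes differed between injured and Sham brains at 1 wpi. Against Sham, 6 of the 8 members fell in the PBS group, 6 fell with MSCs and 6 fell with IL-4 MSCs, and these were Hmgcs1, Idi1, Fdft1, Sqle, Cyp51 and Insig1 each time. None rose, where 8.73%, 11% and 18.4% of all genes tested did. The median log2 fold change of the 8 members was -0.31, -0.39 and -0.35 for PBS, MSCs and IL-4 MSCs, where the medians over all genes were -0.0054, -0.0082 and -0.018. Lower calls made up 5.03% of all genes tested for PBS, 6.89% for MSCs and 18.5% for IL-4 MSCs. These 3 comparisons share their 5 Sham mice and are not independent of each other. Calls are adjusted p-values under 0.05 of a two-sided quasi-likelihood test on the counts, adjusted over all genes tested.

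**Figure D1:**
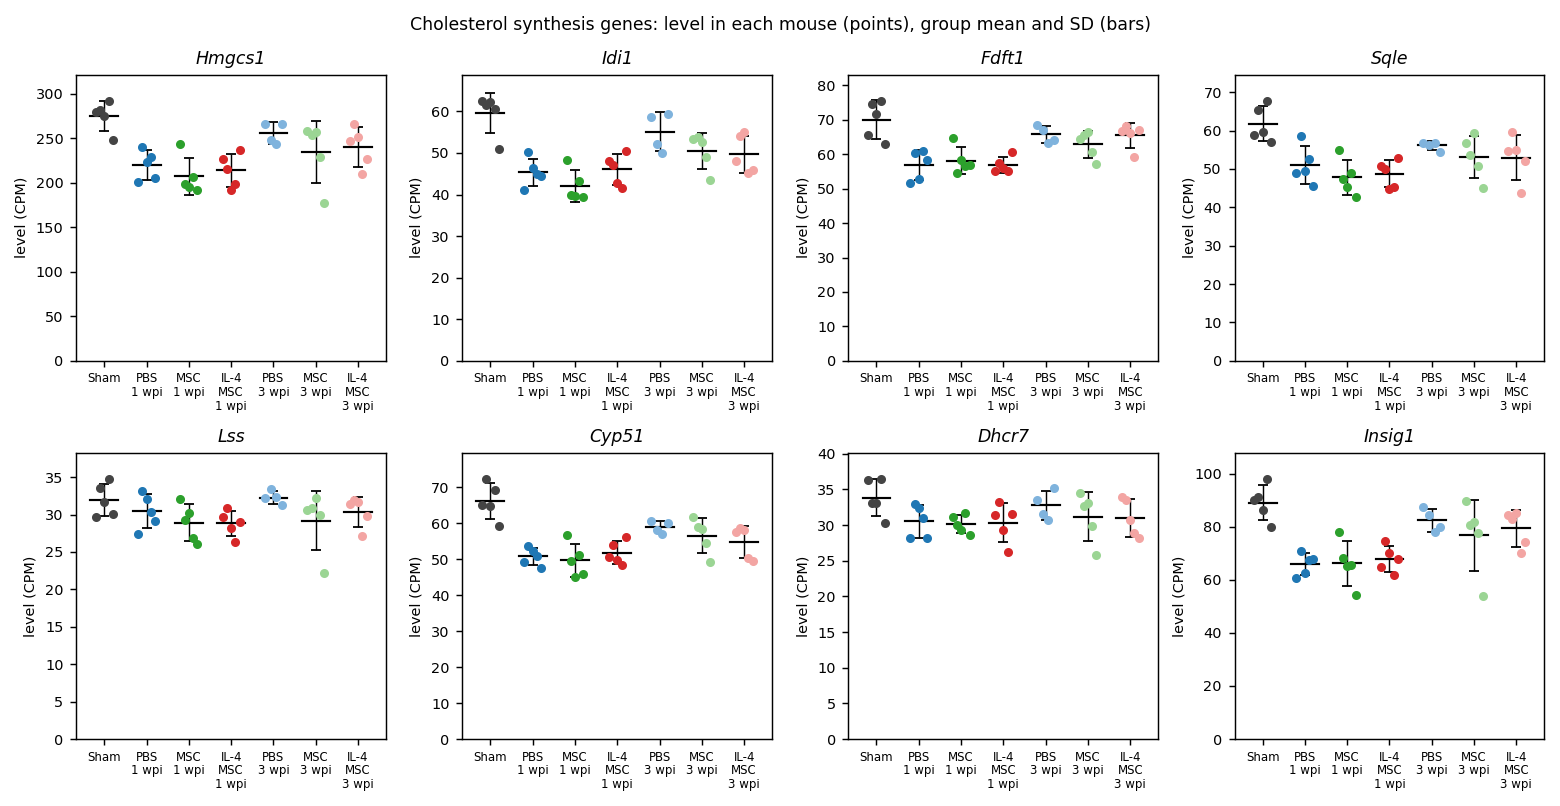
Level of each of the 8 genes in every mouse, in CPM on axes that start at 0, with 1 point per mouse and the group mean and SD as bars, for Sham and for PBS, MSCs and IL-4 MSCs at 1 and 3 wpi. At 1 wpi the Hmgcs1 values lie at 192 to 244 CPM against 248 to 292 CPM in Sham, whereas the Lss values overlap with Sham in every group.

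Hmgcs1 stands at the entry of the route. Its level was 279, 282, 275, 292 and 248 CPM in the 5 Sham mice, and 201, 241, 224, 228 and 205 CPM in the 5 PBS mice at 1 wpi. It was 244, 199, 195, 207 and 192 CPM with MSCs and 227, 215, 192, 198 and 237 CPM with IL-4 MSCs. All 15 injured mice lay below the lowest Sham mouse. Hmgcs1 fell by 20.1% in PBS (log2 fold change -0.32, SE 0.0828, adjusted p = 0.00683), by 24.6% with MSCs (adjusted p = 0.000532) and by 22.3% with IL-4 MSCs (adjusted p = 0.000704).

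The isoprenoid and squalene steps went the same way. Idi1 read 62.6, 61.5, 62.3, 60.5 and 51.0 CPM in Sham, against 41.2, 50.2, 46.3, 44.9 and 44.4 CPM in PBS, 48.3, 40.0, 39.5, 43.2 and 39.4 CPM with MSCs, and 48.2, 47.2, 42.7, 41.7 and 50.4 CPM with IL-4 MSCs. No injured mouse reached the Sham range, although the lowest Sham mouse, at 51.0 CPM, was close to the highest injured mouse. The log2 fold change of Idi1 was -0.39 (SE 0.0739, adjusted p = 0.00029) in PBS, -0.50 (SE 0.074, adjusted p = 7.12e-06) with MSCs, which is a fall of 29.4%, and -0.37 (adjusted p = 0.000137) with IL-4 MSCs. Fdft1, which joins farnesyl units to squalene, read 65.7, 74.6, 71.7, 75.6 and 62.9 CPM in Sham. It ranged from 51.6 to 61.0 CPM in PBS and from 55.0 to 60.5 CPM with IL-4 MSCs, both below all Sham mice. With MSCs it ranged from 54.4 to 64.7 CPM and overlapped with Sham through a single mouse. It fell by 18.8%, 17.0% and 19.0% for PBS, MSCs and IL-4 MSCs, with adjusted p = 0.000227, 0.000621 and 4.96e-05. Sqle, which epoxidizes squalene, read 59.0, 65.2, 59.7, 67.8 and 57.1 CPM in Sham and 49.0, 58.6, 49.4, 52.6 and 45.6 CPM in PBS, where 1 PBS mouse lay inside the Sham range. With MSCs and IL-4 MSCs it reached at most 54.9 and 52.8 CPM and did not overlap with Sham. Sqle fell by 17.3%, 22.7% and 21.1% in the 3 groups (adjusted p = 0.0139, 0.000702 and 0.00064). The call for Sqle in PBS was lost without Sham replicate 4, when its adjusted p was 0.0506.

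The sterol steps were split. Cyp51, which removes the methyl group at carbon 14 of lanosterol, read 65.1, 72.4, 64.9, 69.3 and 59.3 CPM in Sham. It read 49.4, 53.8, 52.4, 51.0 and 47.5 CPM in PBS, 56.7, 49.7, 45.1, 51.2 and 45.9 CPM with MSCs, and 50.5, 54.0, 49.9, 48.3 and 56.3 CPM with IL-4 MSCs. Here too, all 15 injured mice lay below all Sham mice. The log2 fold change of Cyp51 was -0.38 (SE 0.0637, adjusted p = 6.18e-05), -0.41 (adjusted p = 1.38e-05) and -0.35 (adjusted p = 4.06e-05). Lss, which closes squalene epoxide to lanosterol, read 29.7, 33.6, 31.6, 34.8 and 30.0 CPM in Sham and 27.4, 33.1, 32.1, 30.3 and 29.1 CPM in PBS. These values overlapped widely, and the Lss log2 fold changes of -0.07, -0.14 and -0.15 for PBS, MSCs and IL-4 MSCs did not pass the test (adjusted p = 0.607, 0.192 and 0.118). Their 95% intervals ran from -0.22 to 0.078, from -0.29 to 0.0058 and from -0.30 to 0.0017. Dhcr7, which reduces 7-dehydrocholesterol to cholesterol, read 36.3, 33.1, 33.1, 36.5 and 30.3 CPM in Sham and 28.2, 32.9, 32.4, 31.0 and 28.1 CPM in PBS. Its log2 fold changes of -0.15, -0.17 and -0.16 did not pass either (adjusted p = 0.186, 0.111 and 0.0854), and their 95% intervals were -0.29 to -0.0021, -0.31 to -0.02 and -0.30 to -0.01. The difference between Lss or Dhcr7 and the other members was not tested.

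Insig1 makes no sterol itself but restrains SREBP, and it is at the same time a target of SREBP2. It read 89.9, 91.1, 86.3, 98.0 and 79.8 CPM in Sham and 60.6, 70.8, 62.6, 67.4 and 67.7 CPM in PBS at 1 wpi. With MSCs it read 78.0, 68.2, 65.1, 65.4 and 54.4 CPM and with IL-4 MSCs 64.8, 74.4, 70.0, 62.0 and 67.9 CPM. None of the injured mice overlapped with Sham, and the first MSC mouse, at 78.0 CPM, came closest. Insig1 fell by 26.1% in PBS (log2 fold change -0.44, SE 0.0921, adjusted p = 0.00109), by 25.6% with MSCs (adjusted p = 0.00103) and by 23.8% with IL-4 MSCs (adjusted p = 0.000969). Counted over the 8 members, the injured group lay wholly below Sham for 5 genes in PBS, 5 with MSCs and 6 with IL-4 MSCs, where 3.63%, 5.58% and 13.4% of all genes tested did so.

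**Figure D2:**
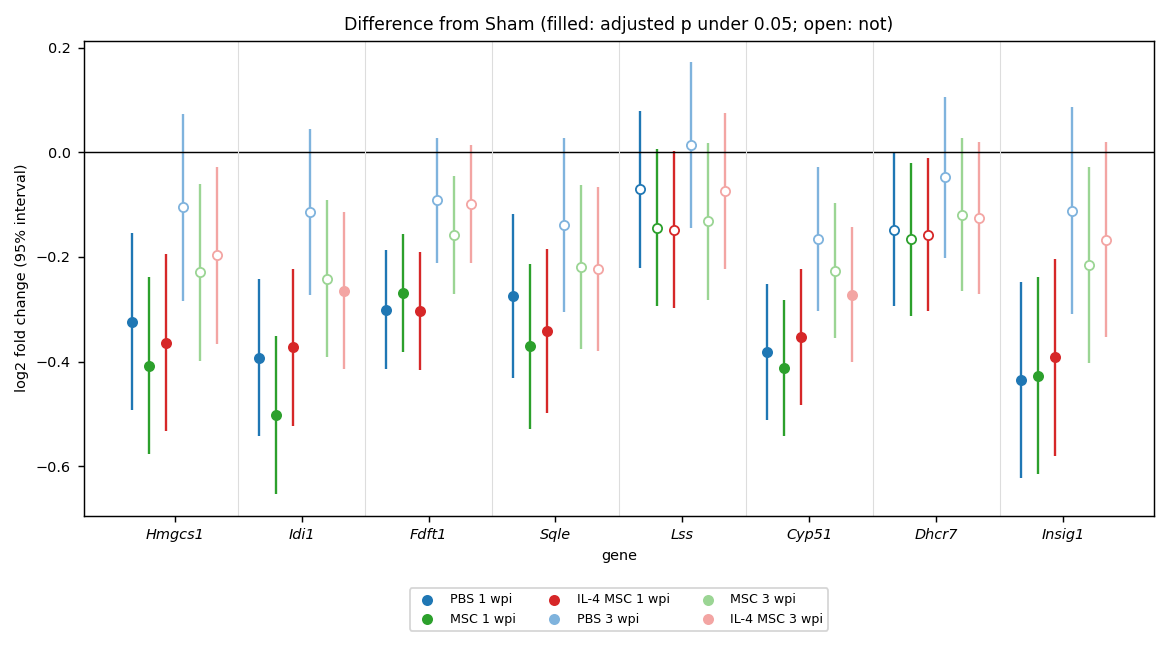
Log2 fold change from Sham with its 95% interval (vertical axis) for each of the 8 genes in the 6 injured groups, where filled points have an adjusted p under 0.05. At 1 wpi 6 genes are filled in all 3 groups, from -0.27 to -0.50, Lss and Dhcr7 are open throughout, and at 3 wpi only Cyp51 and Idi1 with IL-4 MSCs are filled.

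Markers of other cell types moved at the same time. The 9 astrocyte markers summed to 5265 to 5857 CPM in Sham, 6391 to 6816 CPM in PBS, 6121 to 7243 CPM with MSCs and 5874 to 6665 CPM with IL-4 MSCs at 1 wpi, and 5, 5 and 6 of them rose while 1 fell with IL-4 MSCs. The 10 neuron markers summed to 9617 to 10937 CPM in Sham, 8773 to 9993 CPM in PBS, 8841 to 9911 CPM with MSCs and 8533 to 9156 CPM with IL-4 MSCs, and 4, 4 and 8 of them fell. In each of the 3 groups, 6 of 7 microglia markers rose. The 8 markers of infiltrating macrophages summed to 15.3 to 30.7 CPM in Sham and to 46.9 to 85.7, 54.7 to 98.5 and 417 to 659 CPM in the 3 groups, and 4, 4 and 8 of them rose. The 12 oligodendrocyte and myelin markers ran from 5370 to 6637 CPM in Sham, from 5053 to 6117 CPM in PBS, from 5626 to 6250 CPM with MSCs and from 5228 to 5768 CPM with IL-4 MSCs, with 1, 1 and 1 called higher and 1 called lower with IL-4 MSCs. The 7 endothelium markers summed to 242 to 271 CPM in Sham, 224 to 249.9 CPM in PBS, 234 to 292 CPM with MSCs and 303 to 376 CPM with IL-4 MSCs, and 0, 0 and 5 of them rose. The 8 cerebral cortex markers summed to 668 to 759.5 CPM in Sham, 498 to 642 CPM in PBS, 592 to 669.9 CPM with MSCs and 598 to 657 CPM with IL-4 MSCs, and 3, 1 and 4 of them fell. Of 6 markers of oligodendrocyte precursors 1, 0 and 1 rose, and of 9 hippocampus markers 0, 0 and 1 fell. Of all genes tested, 8.73%, 11% and 18.4% rose and 5.03%, 6.89% and 18.5% fell for PBS, MSCs and IL-4 MSCs. No listed marker was at 0 in any library, and the part of endothelium, cortex and macrophage markers in the members' result was not tested.

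With the oligodendrocyte and myelin score of each library as a covariate, 6 members were called lower in each of the 3 groups, as without it. With a neuron score as the covariate, 5, 6 and 5 were called for PBS, MSCs and IL-4 MSCs, and the call for Insig1 was lost in PBS and in IL-4 MSCs. With an astrocyte score as the covariate, the calls fell to 0 in PBS and to 1 with MSCs, which was Idi1, whereas Cyp51, Fdft1, Idi1 and Sqle were called with IL-4 MSCs. In those fits the median log2 fold change of the 8 members was -0.42, -0.48 and -0.44, farther from 0 than without the covariate. The astrocyte score ran from 7.73 to 7.92 in Sham and was at least 8.19 in the 3 groups. The neuron score was at least 9.40 in Sham and at most 9.39 in the 3 groups. Since neither score overlapped with Sham, score and injury cannot be told apart in these fits. The share of all genes called in each of these fits is not given beside the counts. A loss of calls among the members and a loss over all genes therefore cannot be told apart here. Nothing is concluded from the lost calls or the larger fold changes. The astrocyte and neuron scores were added as covariates after the data had been seen. With only the 2 Sham mice collected at 1 week, 6 members were called in each of the 3 groups.

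The next question was whether the treatment given to injured mice made a difference. None of the 8 members was called between treatments, at either time, by edgeR or by DESeq2, and none had an unadjusted p under 0.05 in edgeR. At 1 wpi the log2 differences of IL-4 MSCs from PBS ran from -0.08 to 0.04, with 95% intervals inside -0.23 to 0.23, which is -14.6% to 17.4%, while 17.4% of all genes tested were called between these groups. IL-4 MSCs differed from MSCs by -0.03 to 0.13, the largest being Idi1, with intervals inside -0.15 to 0.28, and 8.69% of all genes were called. MSCs differed from PBS by -0.11 to 0.03, with intervals inside -0.26 to 0.20, and 0.123% of all genes were called. At 3 wpi the differences were -0.15 to -0.01 for IL-4 MSCs and PBS, -0.05 to 0.06 for IL-4 MSCs and MSCs, and -0.15 to -0.06 for MSCs and PBS. The intervals stayed inside -0.31 to 0.14, -0.18 to 0.24 and -0.30 to 0.09, and 2.94%, 3.47% and 0.0817% of all genes were called.

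**Figure D3:**
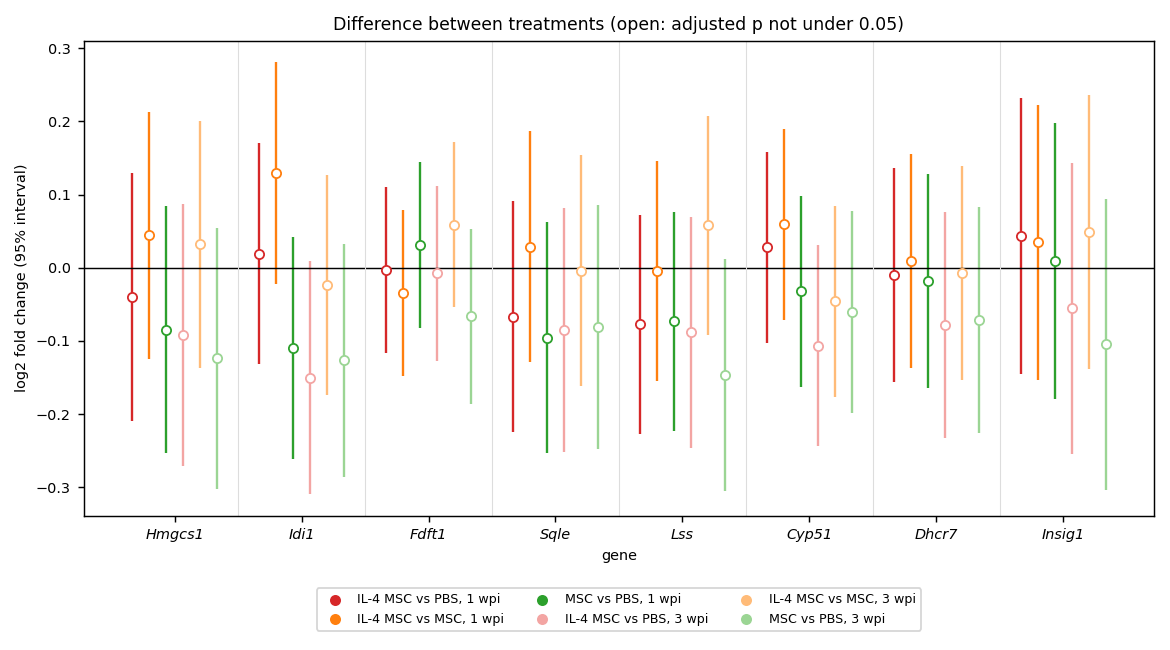
Log2 fold change between treatments with its 95% interval (vertical axis) for each of the 8 genes at 1 and 3 wpi. All points are open, meaning an adjusted p not under 0.05, and all lie between -0.15 and 0.13.

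At 3 wpi the members lay closer to Sham. In PBS none was called, the log2 fold changes ran from -0.17 for Cyp51 to 0.01 for Lss, and 1 member, Cyp51, had an unadjusted p under 0.05. DESeq2 called 0 there too, and in all 0.0292% of genes were called in either direction. Sqle stood at 56.8, 56.3, 56.9 and 54.5 CPM in these 4 mice, just under the lowest Sham mouse at 57.1 CPM, which made it the single member without overlap (0.776% of all genes lay wholly below Sham). With MSCs the log2 fold changes ran from -0.24 for Idi1 to -0.12 for Dhcr7 and again none was called by edgeR, where 1.15% of all genes were. Of these, 6 had an unadjusted p under 0.05, DESeq2 called 1, and Cyp51 came nearest in edgeR with an adjusted p of 0.0725.

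With IL-4 MSCs at 3 wpi 2 members were called lower than Sham, where 1.52% of all genes were. Cyp51 read 57.5, 58.6, 58.2, 50.4 and 49.5 CPM, all below the Sham mice, and fell by 17.2% (log2 fold change -0.27, SE 0.0636, adjusted p = 0.0125). Idi1 read 48.0, 54.0, 55.0, 45.3 and 46.0 CPM, of which 2 mice lay in the Sham range, and fell by 16.8% (log2 fold change -0.26, adjusted p = 0.0355). Neither call was made with the 3 Sham mice of the same week alone, with the 2 groups alone, or with the striatum score as a covariate, while the log2 fold changes in those fits, -0.28, -0.27 and -0.26 for Cyp51 and -0.27, -0.25 and -0.23 for Idi1 in the order compared groups, same week and striatum score, stayed close to those given above. Of the 13 striatum markers, 9 were called higher than Sham in this group. Without IL-4 MSC replicate 5 no member was called, without IL-4 MSC replicate 2 there were 3, and without Sham replicate 1, 2, 3 or 4 or IL-4 MSC replicate 1 or 4 there was 1. The difference between 1 and 3 wpi in the effect of one treatment against another was not called for any member (adjusted p of at least 0.447), where 4.72% of all genes were called for IL-4 MSCs and PBS, 7.86% for IL-4 MSCs and MSCs and 0% for MSCs and PBS.

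Set directly against each other, 3 wpi stood above 1 wpi for all 8 members in all 3 treatments, but few of these differences passed the test. In PBS 3 members rose, where 0.613% of all genes did. Fdft1 read 68.6, 67.1, 63.4 and 64.3 CPM at 3 wpi against 51.6, 60.5, 52.9, 61.0 and 58.4 CPM at 1 wpi, without overlap (log2 difference 0.21, SE 0.0587, adjusted p = 0.0278). Insig1 read 87.4, 84.4, 78.2 and 79.7 CPM, all above its 1 wpi values (0.32, adjusted p = 0.0437), and Idi1 read 58.7, 52.1, 50.1 and 59.4 CPM, which overlapped with 1 wpi through the lowest mouse (0.28, adjusted p = 0.0285). Cyp51 and Hmgcs1 also did not overlap between the weeks but were not called (0.22 and 0.22, adjusted p = 0.0554 and 0.172), so that 4 members were without overlap, beside 1.94% of all genes. With MSCs only Idi1 rose (0.26, adjusted p = 0.029), where 1.22% of all genes rose, and with IL-4 MSCs only Fdft1 rose (0.20, adjusted p = 0.00447), where 16.4% of all genes rose. The median differences of the 8 members were 0.21, 0.17 and 0.11 for PBS, MSCs and IL-4 MSCs.

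These counts turned on single mice. In PBS, leaving out replicate 1 or 3 of 1 wpi or replicate 1 of 3 wpi left 0 calls, leaving out replicate 4 or 5 of 1 wpi or replicate 2 or 4 of 3 wpi left 1, and leaving out replicate 2 of 1 wpi or replicate 3 of 3 wpi left 2. With MSCs, replicate 5 at 3 wpi was the lowest of its group for all 8 members, with Hmgcs1 at 177 CPM against 229 to 258 CPM and Insig1 at 53.9 CPM against 77.5 to 89.8 CPM in the other 4 mice. Without it 4 members were called higher at 3 wpi than at 1 wpi, without MSC replicate 1 of 1 wpi there were 2, and without each of the other 8 libraries there were 0. The count against Sham stayed at 0 without MSC replicate 5. With IL-4 MSCs the single call was lost without replicate 2 of 3 wpi.

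The 8 members varied together from mouse to mouse. Over the 34 libraries, Pearson's r between 2 members on the log2 CPM scale ran from 0.593 for Fdft1 and Dhcr7 to 0.937 for Hmgcs1 and Idi1 over the 28 pairs, with a median of 0.828. After the group means were taken out, r ran from 0.487 to 0.889 with a median of 0.738. The points share their libraries, so these values also carry depth and tissue composition. The summed level of the members ran from 619 to 735 CPM in Sham, from 509 to 601 CPM in PBS, from 486 to 609 CPM with MSCs and from 503 to 585 CPM with IL-4 MSCs at 1 wpi, which do not overlap with Sham. At 3 wpi it ran from 612 to 664, from 474 to 649 and from 534 to 655 CPM, which all overlap with Sham.

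Of all genes tested, the 10 most like the mean of the members over the 34 libraries included, in order, Msmo1 (r = 0.961), Stard4 (0.881), Fdps (0.872), Hsd17b7 (0.842), Nsdhl (0.812), Mvd (0.811) and Fam149a (0.797). Of the genes named, Msmo1, Fdps, Hsd17b7, Nsdhl and Mvd encode enzymes of the same route, and Stard4 carries sterol between membranes. With the group means taken out, r was highest for Msmo1, at 0.932, and lowest for Nsdhl, at 0.697.

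Around the members, 40 other genes of cholesterol and lipid handling were followed. Of 13 other enzymes of the route, 5 fell in PBS, 7 with MSCs and 8 with IL-4 MSCs at 1 wpi, where 5.03%, 6.89% and 18.5% of all genes fell. Ebp, a sterol isomerase, and Lbr, a sterol reductase of the nuclear envelope, rose by 0.16 and 0.25 on the log2 scale with IL-4 MSCs. The medians over the 13 were -0.13, -0.15 and -0.18. Msmo1, which acts next to Cyp51 on lanosterol's methyl groups, fell by 0.31, 0.37 and 0.34 on the log2 scale for PBS, MSCs and IL-4 MSCs. Fdps, Sc5d, Nsdhl and Hsd17b7 also fell in all 3 groups, by 0.18 to 0.27. Mvk, Pmvk and Mvd, the kinases and the decarboxylase that turn mevalonate into isoprenoid units, were not called in any of the 3. Acat2, which joins acetyl-CoA units, and Ggps1, which makes geranylgeranyl diphosphate, fell with MSCs and with IL-4 MSCs, by 0.10 to 0.17, and Tm7sf2, a sterol reductase, fell by 0.18 with IL-4 MSCs. At 3 wpi 0 of the 13 were called in each of the 3 groups.

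The genes that control SREBP were mixed. Srebf2, which encodes SREBP2, had a mean of 228 CPM in Sham and 188, 185 and 180 CPM at 1 wpi, with log2 fold changes of -0.28, -0.30 and -0.34 that were all called, and it rose from 1 to 3 wpi by 0.16, 0.15 and 0.25 for PBS, MSCs and IL-4 MSCs. Insig2, the relative of Insig1, fell by 0.13, 0.16 and 0.16. Srebf1, whose products act more on fatty acid synthesis, went the other way, with 0.27 and 0.32 in MSCs and IL-4 MSCs called and 0.21 in PBS not called. Scap, the escort of SREBP, and the protease gene Mbtps2 fell slightly with IL-4 MSCs, by 0.07 and 0.12. Stard4, a target of SREBP2, fell by 0.40, 0.47 and 0.32.

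Genes of cholesterol export and storage mostly rose where they were called. Abca1, the transporter that loads cholesterol onto apolipoproteins, had a mean of 65.0 CPM in Sham and 119, 137 and 159 CPM at 1 wpi, with log2 fold changes of 0.87, 1.08 and 1.29. Apoe, the main brain apolipoprotein, rose by 0.33, 0.50 and 0.38 and was still higher than Sham at 3 wpi with MSCs (0.40) and IL-4 MSCs (0.37). Of the 6 genes of LXR and its efflux targets, 2, 2 and 5 rose, and of the 8 genes of storage, transport and hydroxylation 4, 3 and 5 rose. Ch25h, which makes 25-hydroxycholesterol, rose by 1.60, 1.76 and 2.85, and Npc2, which exports cholesterol from lysosomes, by 0.33, 0.49 and 1.03. Cyp46a1, the neuronal enzyme that turns cholesterol into its exported form, was not called, with log2 fold changes of -0.08, -0.03 and -0.10. Of the 6 fatty acid genes 2, 2 and 4 fell, with Acly, which supplies acetyl-CoA, at -0.20, -0.16 and -0.14 and Elovl6, an elongase, at -0.15, -0.20 and -0.22. Scd1 and Scd2, the desaturases, were not called. Taking the 40 genes as a whole, 6 rose and 10 fell in PBS, 6 and 12 with MSCs and 13 and 17 with IL-4 MSCs. Of all genes tested, 8.73% rose and 5.03% fell in PBS, 11% and 6.89% with MSCs and 18.4% and 18.5% with IL-4 MSCs. The counts of the smaller lists above stand beside the same shares, which were largest with IL-4 MSCs. At 3 wpi 0 were called in PBS and 1 with MSCs, where 0.0292% and 1.15% of all genes were called in either direction. With IL-4 MSCs 5 were called, of which 2 fell, where 1.52% of all genes fell, and 3 rose. The share of all genes that rose there is not given. Between treatments at 1 wpi, IL-4 MSCs stood above PBS for 9 of the 40 genes and below PBS for 2, where 17.4% of all genes were called in either direction. They stood above MSCs for 4, where 8.69% of all genes were called in either direction.

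**Figure D4:**
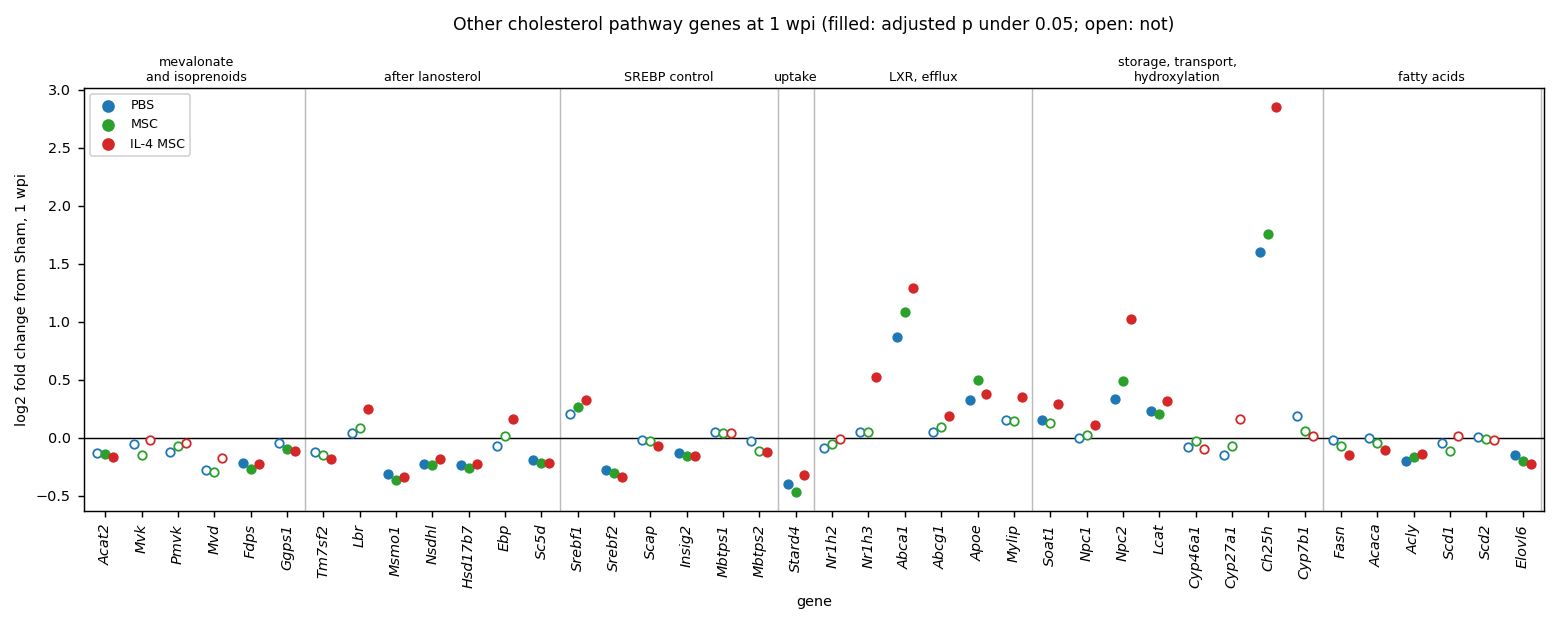
Log2 fold change from Sham at 1 wpi (vertical axis) of the 40 other genes of cholesterol and lipid handling, grouped by role, for PBS, MSCs and IL-4 MSCs, where filled points have an adjusted p under 0.05. Synthesis genes that are called lie mostly below 0, as Msmo1 at -0.31 to -0.37, and export and storage genes that are called lie above 0, up to 2.85 for Ch25h with IL-4 MSCs.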

How the data were processed

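RNA was taken from tissue around the injection site of 34 mice in 7 groups. The authors trimmed reads with cutadapt 2.4, checked them with FastQC 0.11.8 and assigned them with kallisto 0.46 to GENCODE transcripts of mouse build GRCm38, and the deposited table holds estimated counts and TPM for each of 21203 genes and library. Estimated counts are not normalized, 34.1% of them lie more than 0.05 from a whole number, and they were rounded here. The table also holds p-values, q-values and fold changes of the authors' own comparisons (sleuth 0.30 in R 3.6.1), which were not used. The labels list 1 further PBS library of 3 wpi, which the authors excluded and which is not analysed here. Depth was 29838423 to 41554322 estimated counts per library. The groups were taken from the labels, the Sham mice of both weeks were kept as 1 group, and 1 library per mouse makes the mouse the replicate. 

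Counts were filtered with filterByExpr, scaled with TMM (factors 0.968 to 1.04) and fitted for all groups together by the quasi-likelihood test of edgeR 4.0.16 in R 4.3.3. There were 15 comparisons, hence 120 tests of members, and 3 tests of a difference between weeks. P-values are two-sided and adjusted by Benjamini-Hochberg over 17131 genes within each comparison. CPM used TMM library sizes, with a prior count of 2 on the log2 scale. Intervals cover 95% and come from the fit. TPM served only for levels between genes. Marker scores are mean log2 CPM over a list. The named genes were the 8 members, the fixed lists of pathway genes and markers, and the 10 genes most correlated with the mean standardized log2 CPM of the members, and some genes of these lists are not reported here. The members, the lists and the tests were chosen with earlier results of these data known. The scripts were tested on simulated data.

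Alternatives were relative log expression scaling, no filter, DESeq2 1.42.0, a fit of the compared groups alone, Sham mice of the same week, the replicate number as a block, marker scores as covariates and leaving out each library. The replicate numbers of the labels were not taken to pair mice. Of 99 same-numbered pairs from different groups, 24 had correlated deviations over 0.1. The median r was 0.0116 for same-numbered pairs and 0.00122 for different-numbered pairs. In the 66 pairs within groups, counts differed by more than sampling noise, so none was treated as a library deposited again. Reference sequences are from RefSeq on GRCm38.p6 and positions from the GENCODE annotation.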

Additional observations from a re-analysis of the deposited data

Results flagged for a closer look

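In 4 of 56 combinations of member and group, 1 mouse lay far from the rest of its group by Dixon's criterion, which chance alone meets in about 1 of 20 groups. Insig1 read 53.9 CPM and Lss 22.2 CPM in MSC replicate 5 at 3 wpi, where the other 4 mice read 77.5 to 89.8 and 30.0 to 32.2 CPM. Idi1 read 51.0 CPM in Sham replicate 5, beside 60.5 to 62.6 CPM in the other 4 Sham mice. Fdft1 read 59.1 CPM in IL-4 MSC replicate 4 at 3 wpi, beside 66.1 to 68.3 CPM.

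The effect of IL-4 MSCs differed between 3 and 1 wpi, by the interaction term of the same fit, for 5 of the 40 other pathway genes and for 0 members. Of the 40, 2 were called against PBS, where 4.72% of all genes were, and 5 against MSCs, where 7.86% were. The count against PBS was thus close to the share over all genes and sets these genes apart in no way. Against PBS, the log2 effect was lower at 3 than at 1 wpi by -0.57 for Npc2 (adjusted p = 0.000789) and by -0.34 for Lcat, which esterifies cholesterol on lipoproteins (adjusted p = 0.0169). Against MSCs, it was lower by -0.53 for Npc2 (adjusted p = 0.000822), by -0.39 for Lcat (adjusted p = 0.00284), by -0.28 for Soat1, which esterifies cholesterol in cells (adjusted p = 0.00719), by -0.64 for Nr1h3, which encodes an LXR (adjusted p = 0.00549), and by -0.39 for Mylip, a ubiquitin ligase and LXR target (adjusted p = 0.0188).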

How the results depend on the processing

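The count of members called lower than Sham at 1 wpi was 6 under every alternative for MSCs, PBS and IL-4 MSCs except where a marker score or a left-out library changed it. The astrocyte score, which did not overlap between Sham and these groups, gave 0 in PBS and 1 with MSCs. Leaving out 1 library gave 5 to 6 in PBS and 6 to 6 with MSCs and with IL-4 MSCs. For IL-4 MSCs against Sham at 3 wpi the count of 2 became 0 with the compared groups alone, 0 with Sham mice of the same week, 0 with the striatum score and 0 to 3 on leaving out 1 library, while over 20 alternatives the log2 fold change stayed at -0.31 to -0.24 for Cyp51 and at -0.32 to -0.23 for Idi1. For MSCs against Sham at 3 wpi the count of 0 became 1 with DESeq2, 1 with the replicate block and 0 to 2 on leaving out 1 library, with 2 without Sham replicate 5 and 1 without MSC replicate 1. Between 3 and 1 wpi, the count in PBS (3) became 1 with the replicate block, 1 with the neuron score, 0 with the astrocyte score and 0 to 2 on leaving out 1 library. In MSCs (1) it became 0 with the compared groups alone, 2 with the block, 3 with the oligodendrocyte score, 0 with the astrocyte score and 0 to 4 on leaving out 1 library. In IL-4 MSCs (1) it became 2 with the compared groups alone, 2 with the block, 2 with the oligodendrocyte score, 0 with the astrocyte score and 0 to 1 on leaving out 1 library. Other counts between treatments or weeks stayed at 0 to 0 on leaving out 1 library. The astrocyte score also did not overlap between 1 and 3 wpi within any treatment, and the cause of these changes was not tested. The replicate numbers were not taken to pair the mice, so the block serves only as a check. No member result that was called in the main or the alternative fit reversed its direction. Changes of sign among results called in neither fit were not counted. Counts of members under the alternatives are given without the share of all genes called in the same fit, so they do not show whether a change was particular to the members. With 4 or 5 mice per group, the printed intervals set what could be seen. The p-values weigh a difference between groups against the spread between mice within groups. The labels do not say whether mice of a group were handled on separate days, so whether that spread includes differences between days is not known.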
